A study of Mus musculus with 15 samples.

Results

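The nuclear oxidative phosphorylation genes were taken as the protein-coding genes of GENCODE release M21 on chromosomes 1 to 19 and X whose symbols begin with Nduf followed by a, b, c, s or v and a digit, with Uqcr, with Cox4 to Cox8, or with Atp5. The rule gave 81 gene entries with 80 distinct symbols, because Atp5o has a second, longer entry, out of 21755 protein-coding genes. By symbol, 37 belonged to complex I (Nduf), 8 to complex III (Uqcr), 18 to complex IV (Cox) and 18 to complex V (Atp5). Since the rule uses symbols, cytochrome c1, complex II and the genes encoded in the mitochondrial genome were not members, whereas a few genes that are not canonical subunits were (Cox7a2l, Atp5s and Ndufa4l2).

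The study profiled H3K4me3, a histone mark of active promoters, in the adult amygdala of male mice that were WT, Kmt2a-HET, Kdm5c-KO or carried both mutations (DM). KMT2A writes methylation at H3K4 and KDM5C removes it. The values below come from WT mice, which were Kmt2a+/+ and Kdm5c+/y and were 129xB6 hybrids of the F1 generation, with no mutation or treatment. Nuclei were digested with micrococcal nuclease and precipitated with the RM340 antibody, 2 WT animals were used, and 1 list of 24162 peak summits served for both.

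Each summit in the list was a single position with a score, taken to be the −log10 q-value that MACS2 writes, which ran from 1.18 to 342 with a median of 102. A higher score marks a more certain enrichment over input, which depends on sequencing depth as well as on the amount of the mark, and the list does not give the depth. A gene was called marked when a summit lay within 1 kb of any of its TSSs (transcription start sites), and its score was that of the highest such summit. Because both animals shared 1 list there was no spread between replicates, so no difference below was tested. The 95% Wilson intervals cover counting error only, and genes are not replicates. In a tissue of mixed cells, fewer nuclei with the mark and less mark per nucleus cannot be told apart.

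Oxidative phosphorylation passes electrons from NADH through complex I, ubiquinone, complex III and cytochrome c to oxygen at complex IV. Complexes I, III and IV pump protons across the inner mitochondrial membrane, and complex V, the ATP synthase, uses their return to make ATP. Most subunits are encoded in the nucleus and are needed in nearly every cell, and neurons depend heavily on this pathway. Several complex IV subunits, however, exist as pairs of isoforms from separate genes, in which a broadly used gene has a relative known mainly from heart and skeletal muscle (Cox6a2, Cox7a1, Cox8b), testis (Cox6b2, Cox7b2, Cox8c) or lung (Cox4i2). Ndufa4l2, the relative of Ndufa4, is known as a hypoxia-induced gene.

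The sequences upstream of 4 isoform pairs are shown because their members were marked so differently in the same list of summits. Each runs 5′ to 3′ on the gene's strand, from 120 to 21 bases before the RefSeq transcript start on GRCm38.p6, and capitals mark CG dinucleotides. The stretches are Cox7a2 at chr9:79759874-79759973 on the minus strand, Cox7a1 at chr7:30184051-30184150 on the plus strand, Cox8a at chr19:7217637-7217736 on the minus strand, Cox8b at chr7:140900467-140900566 on the minus strand, Cox6b1 at chr7:30626135-30626234 on the minus strand, Cox6b2 at chr7:4753115-4753214 on the minus strand, Cox7b at chrX:106015580-106015679 on the plus strand and Cox7b2 at chr5:71548226-71548325 on the minus strand.
Cox7a2: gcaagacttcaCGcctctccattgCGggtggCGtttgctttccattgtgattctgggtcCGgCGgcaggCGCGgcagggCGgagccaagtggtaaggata
Cox7a1: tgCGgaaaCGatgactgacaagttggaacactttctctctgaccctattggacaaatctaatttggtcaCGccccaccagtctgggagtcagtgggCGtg
Cox8a: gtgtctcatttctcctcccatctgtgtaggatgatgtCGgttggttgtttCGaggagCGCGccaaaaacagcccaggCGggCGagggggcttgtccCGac
Cox8b: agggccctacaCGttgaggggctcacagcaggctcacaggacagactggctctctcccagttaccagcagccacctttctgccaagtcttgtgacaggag
Cox6b1: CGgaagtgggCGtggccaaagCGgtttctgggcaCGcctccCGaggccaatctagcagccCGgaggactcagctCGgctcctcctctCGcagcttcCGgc
Cox6b2: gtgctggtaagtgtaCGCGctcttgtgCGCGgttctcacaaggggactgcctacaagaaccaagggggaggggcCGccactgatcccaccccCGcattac
Cox7b: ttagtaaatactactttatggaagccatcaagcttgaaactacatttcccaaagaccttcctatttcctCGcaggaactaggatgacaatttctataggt
Cox7b2: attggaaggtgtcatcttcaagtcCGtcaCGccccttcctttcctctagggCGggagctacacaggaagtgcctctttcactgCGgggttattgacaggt

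The stretches lay upstream of the RefSeq start, and at most 17 of their bases were inside an annotated exon of any gene. They held 8 CG sites for Cox7a2 and 4 for Cox7a1, 7 for Cox8a and 1 for Cox8b, and 9 for Cox6b1 and 6 for Cox6b2. In these 3 pairs the broadly used gene had the larger number. The fourth pair ran the other way, with 1 site for the broadly used Cox7b and 4 for the testis isoform Cox7b2.

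A promoter summit was found for 74 of the 81 members (91.4%, 83.2 to 95.8), against 65.2% of all protein-coding genes. The median score of the marked members was 246 with quartiles of 221 and 268, and the median over all marked protein-coding genes was 195. Of all 81 members, 68 (84.0%) reached that median of 195, as did 33.0% of all protein-coding genes. The top 10% of marked protein-coding genes held 30 of the 74 marked members (40.5%). The tissue-restricted isoforms made up the whole lower end of the scores, since 3 of these 8 genes were marked and none scored above 29.7. All 8 had a CpG ratio, defined below, under the median of all protein-coding genes. Their marked share (37.5%, 13.7 to 69.4) was near the 35.3% of all protein-coding genes under that median. The marked genes among the latter had a median score of 140.1. Without the restricted isoforms, 71 of 73 members were marked (97.3%, 90.5 to 99.2), from 172 for Ndufb11 to 324 for Ndufa4.

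**Figure D1:**
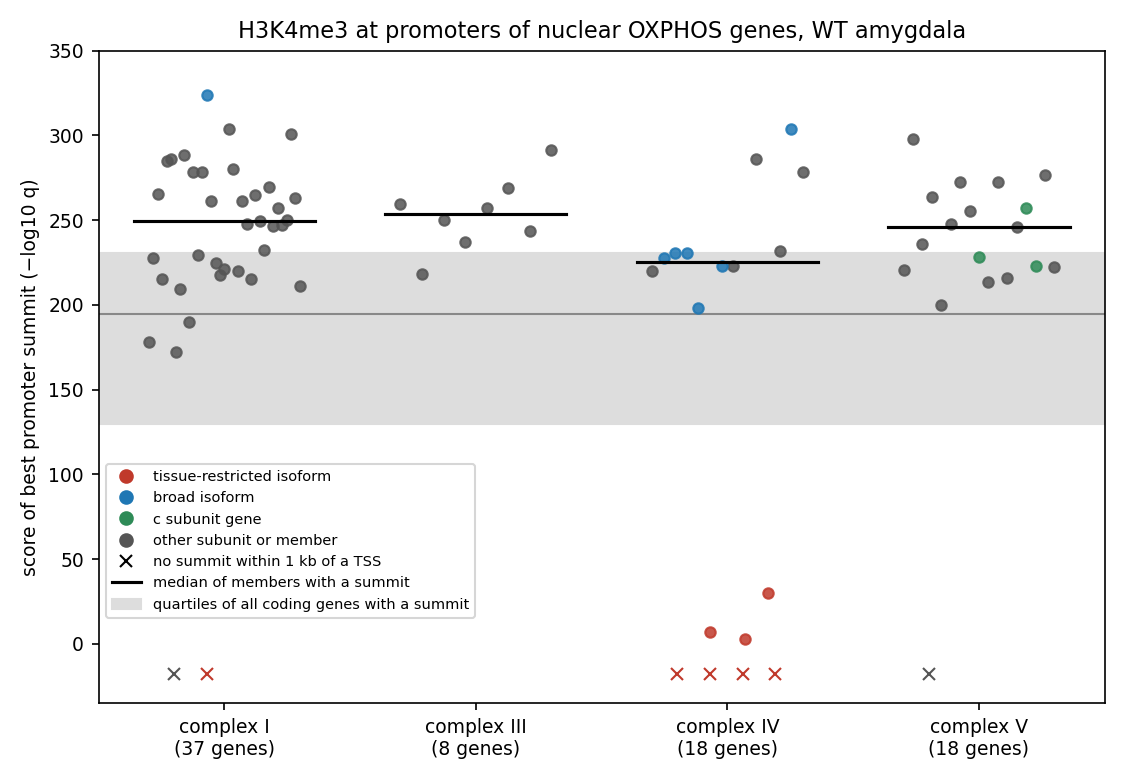
Score of the best promoter summit (vertical axis, −log10 q) for each member by complex, with 1 point per gene and members without a summit drawn below 0. Complexes I, III and V lie between 172 and 324, and the complex IV points reach down to 2.82 through 3 restricted isoforms.

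In complex I, which oxidises NADH, 35 of 37 genes were marked (94.6%, 82.3 to 98.5) with a median score of 249. The 7 core subunits, which carry the flavin and the iron-sulphur clusters or form the quinone site, were all marked with a median of 266. Among these, the cluster proteins Ndufs1 and Ndufs7 scored 304 and 286, and Ndufv2 and Ndufs3 scored 285 and 266. Lower values were found for Ndufv1, which binds the flavin (225), and for Ndufs8 (190.1), the only core gene under the median of all marked protein-coding genes. The core genes therefore spanned most of the range seen in the whole complex.

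Of the 29 accessory subunits, which surround the core and serve its assembly and stability, 28 were marked with a median of 248. The highest score of the complex and of the whole set belonged to Ndufa4 (ENSMUSG00000029632, chr6:11900292-11907497, minus strand), at 324 above 99.9% of marked protein-coding genes. Although named as a complex I subunit, its protein is now placed with complex IV. Ndufs4, an accessory subunit whose loss is known to cause Leigh syndrome, scored 301. At the other end stood Ndufb11 (172) and Ndufa1 (178), both on the X chromosome.

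The X chromosome, of which these male mice have a single copy, had lower scores as a whole. Its marked protein-coding genes had a median of 163 against 197 on the autosomes. The 3 members on X were all marked, and besides Ndufb11 and Ndufa1 they included Cox7b at 223. Among marked X genes, 59.1% scored below Ndufb11, 63.7% below Ndufa1 and 94.5% below Cox7b, whereas the shares of all marked genes were 37.9%, 40.6% and 69.2%. The 2 lowest members of complex I were thus above the middle of their own chromosome. Copy number and other properties of the X chromosome cannot be told apart here.

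All 8 genes of complex III, which hands electrons from ubiquinol to cytochrome c, were marked (67.6 to 100%), with a median of 254 and the narrowest range of the 4 complexes. A range tends to widen with the number of genes, and this complex had the fewest. The highest was Uqcrb (291), followed by the Rieske iron-sulphur protein gene Uqcrfs1 (269) and the small subunit Uqcr11 (259). The lowest were Uqcrc1 (218), a core protein, Uqcr10 (237) and Uqcrq (244). Every gene of this complex scored above the median of marked protein-coding genes.

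Complex IV, cytochrome c oxidase, had the lowest share of marked genes, 14 of 18 (77.8%, 54.8 to 91.0), and the lowest median, 225. Leaving out the restricted isoforms, 11 of 11 genes were marked and the median was 230.4, from 198 for Cox6a1 to 304 for Cox7a2. Cox6c, a small subunit with no second isoform, scored 286, and Cox7a2l, which helps to join complexes III and IV into supercomplexes, scored 278.

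Within the isoform families the broadly used gene was marked each time. Cox7a2 scored 304, and its muscle relative Cox7a1 (ENSMUSG00000074218, chr7:30184144-30186078, plus strand) had a summit of 2.82, a value exceeded by nearly all marked protein-coding genes, with only 0.106% of them below it. Cox6a1 scored 198 and the muscle isoform Cox6a2 6.91. Cox6b1 scored 230.4 and the testis isoform Cox6b2 29.7. In these 3 families both genes had a summit, with the restricted gene far lower.

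In the other families the restricted gene had no summit within 1 kb. Cox4i1, the subunit on which ATP acts as an inhibitor of the complex, scored 230.4, and the summit nearest to the lung isoform Cox4i2 lay 17678 bp away. Cox8a scored 227, and the nearest summits were 8420 bp from the muscle isoform Cox8b and 20545 bp from the testis isoform Cox8c. Cox7b scored 223, and the nearest summit to Cox7b2 was 22624 bp away with a score of 13.2. Ndufa4 scored 324, and Ndufa4l2 had its nearest summit 2923 bp upstream, at a score of 102. The 7 broad genes ran from 198 to 324, and the 3 restricted genes with a score ran from 2.82 to 29.7. Of all marked protein-coding genes, 8.19% scored below that 29.7 and 51.8% below that 198.

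**Figure D2:**
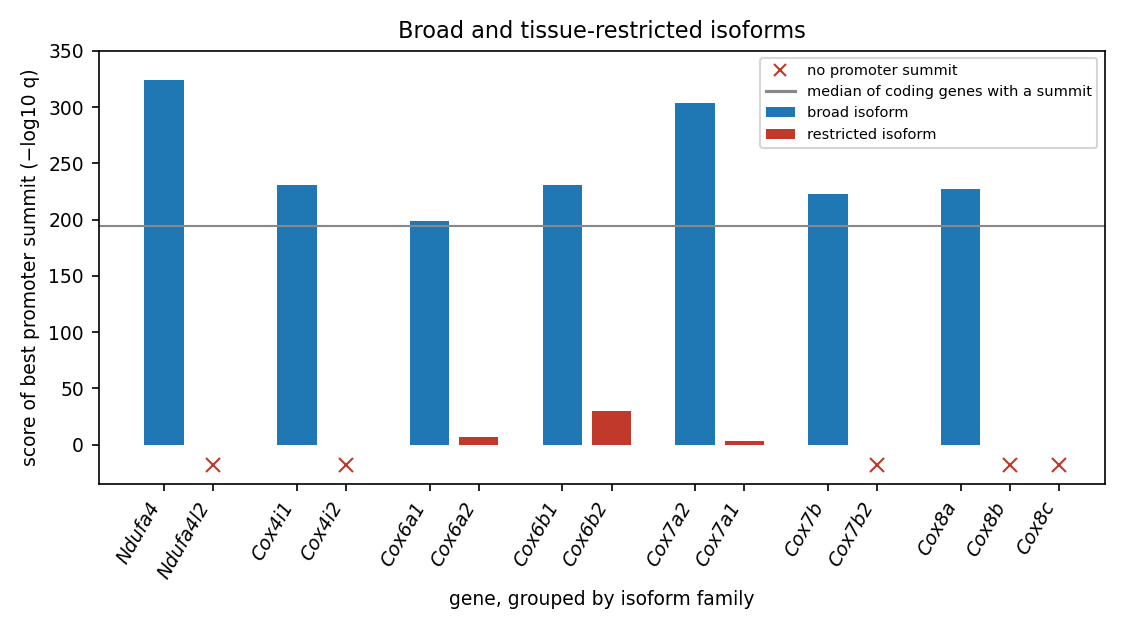
Scores of the best promoter summit (−log10 q) of the genes of each isoform family, with broad and restricted isoforms as separate colours. Broad isoforms lie between 198 and 324, and restricted ones at 29.7 or below or without a summit.

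The list of markers for the cell types in which the restricted isoforms are known was compared in the same way. Of 12 striated muscle markers, 2 had a promoter summit, Ckm (9.05) and Actn3 (229.7), and each of these summits also lay within 1 kb of another protein-coding gene. None of the 10 testis germ cell markers had one. By contrast, 9 of 10 neuron markers were marked with a median of 219, all but Stmn2, while 6 of 6 astrocyte markers had a median of 135 and 6 of 8 oligodendrocyte markers (without Olig1 and Sox10) a median of 101. Markers of neurons and glia were thus mostly marked and those of muscle and testis mostly not, beside 65.2% of all protein-coding genes. The muscle and testis markers had low median CpG ratios, 0.25 and 0.27. Of all protein-coding genes with a ratio from 0.18 to 0.27, 28.4% were marked. The oligodendrocyte markers were mostly marked at a median ratio of 0.24, and those of neurons and astrocytes had 0.54 and 0.39. Whether CpG content accounts for the contrast was not tested. The part of each cell type in the members' scores was not tested.

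Complex V had 17 of 18 entries marked (94.4%, 74.2 to 99.0) with a median of 246. The F1 genes, which form the catalytic head and its central stalk, had a median of 216. Atp5c1, the gamma subunit of the rotating stalk, scored 273 and the catalytic-head gene Atp5a1 248, while Atp5b, which holds the catalytic sites, scored 216. The other stalk genes Atp5d and Atp5e stood at 213 and 200.2. The lowest scores of complex V were thus in F1, at Atp5e, Atp5d and Atp5b.

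The 4 marked peripheral stalk genes, which hold the head still, had a median of 241 and included Atp5f1 (277). Of the membrane part, Atp5mpl scored 298, the highest of the complex. The c subunit, whose ring turns as protons pass, is encoded by 3 genes that yield the same mature protein, and all 3 were marked: Atp5g1 at 257, Atp5g3 at 229 and Atp5g2 at 223. Unlike the complex IV isoforms, these genes differed little in score. Atp5s, which is not a canonical subunit of the enzyme, scored 264.

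The 7 entries without a promoter summit were the 5 restricted isoforms named above, Ndufa13 and the second Atp5o entry. Ndufa13 (ENSMUSG00000036199, chr8:69894180-69902558, minus strand), an accessory complex I subunit also known as GRIM-19, had a summit of 227 at 1158 bp downstream of its nearest GENCODE TSS, just past the limit of 1 kb. From its RefSeq start, which lies 538 bp inside the GENCODE gene, that summit was 620 bp away. The second Atp5o entry (ENSMUSG00000116933) spans 242585 bp, and its nearest summit, 4399 bp away, was the one of 246 that marked the first entry. On the inner side of the limit, the most distant best summits belonged to Atp5a1 (543 bp), Ndufv2 (523 bp) and Ndufb11 (500 bp), so no marked member was near the limit.

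The signed distance from the nearest TSS to the best summit, negative when upstream, had a median of 179.5 bp for the marked members. Over all marked protein-coding genes it was 171 bp. The best summit was downstream of the TSS in 57 members and upstream in 17 (23.0%), against 20.7% upstream among all marked protein-coding genes. Between 251 and 500 bp downstream lay 31.1% of members and 21.9% of all marked genes. Beyond 500 bp on either side lay 2 members, and none was upstream, while the shares over all marked genes were 3.54% upstream and 11.6% downstream. Member summits were thus mostly just after the start, with few far from it.

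**Figure D3:**
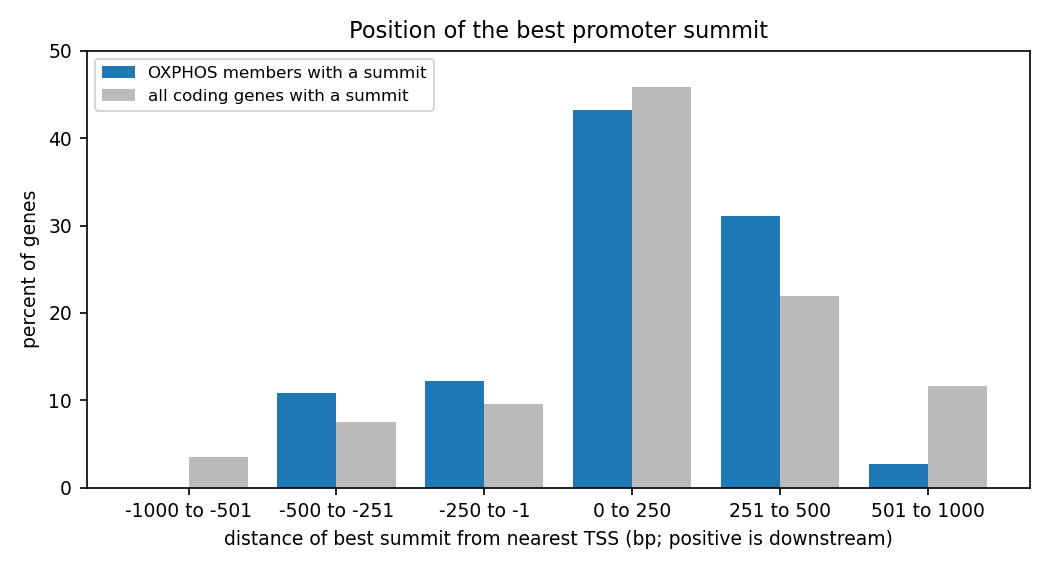
Share of genes (vertical axis, percent) by the signed distance in bp from the nearest TSS to the best summit, for the 74 marked members and the 14193 marked protein-coding genes. The bin from 0 to 250 bp downstream holds the largest share of both sets (43.2% and 45.8%), and the outermost bins hold fewer members.

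Of the best summits of the 74 marked members, 35 fell in the first intron (47.3%, against 44.4% over all marked genes) and 17 in the first exon (23.0%, against 32.3%). A second promoter summit was found for 5 members (6.76%), against 18.1% of marked protein-coding genes. Atp5d had the closest pair in score, 213 and 191, and Atp5h had 236 and 197. In Atp5g2 (223 and 84.3) and Atp5g1 (257 and 28.7) the second summit was much lower and upstream of the TSS.

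Many members sit head to head with another gene. The best summit of 26 marked members (35.1%) also lay within 1 kb of the TSS of another protein-coding gene, against 18.5% of marked protein-coding genes. In all 26 the neighbour was on the opposite strand, and the summit was the best one of both genes, so that the score cannot be assigned to either. How often this holds for the shared summits of all protein-coding genes was not counted. The 26 members were 15 genes of complex I, 4 of complex III, 1 of complex IV (Cox4i1) and 6 of complex V. The summit lay upstream of the member's own TSS in 10 of the 26, while 7 members had an upstream summit without a shared one.

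Some neighbours belong to related processes. Atp5j, a peripheral stalk gene, had its TSS 31 bp from that of Gabpa, which encodes the DNA-binding subunit of NRF2, a regulator of oxidative phosphorylation genes, and both shared the summit of 223. Mitochondrial ribosomal protein genes were paired with Ndufb5 (Mrpl47, 20 bp) and Ndufs6 (Mrpl36, 29 bp). The cytosolic translation genes Eef1b2 and Rps28 were paired with Ndufs1 (3 bp) and Ndufa7 (10 bp). Ndufb11 was paired with Rbm10 (3 bp), an RNA-binding protein gene, on the X chromosome. The widest gaps were those of Uqcr10 with Zmat5 (336 bp) and Ndufa4 with Phf14 (312 bp), which means that the highest score of the set was from a shared promoter.

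CpG content was measured as observed over expected CpG in 500 bp on either side of the outermost TSS, and the median over all protein-coding genes was 0.56. The members had a median of 0.71, with 0.72 for complex I, 0.77 for III, 0.58 for IV and 0.73 for V. The 7 broad isoforms had a median of 0.78 and the 8 restricted isoforms of 0.33, from 0.19 to 0.47. Above the value of 0.56, 65 of 66 members were marked (98.5%), as were 95.2% of all protein-coding genes. The exception was Ndufa13. Below it, 9 of 15 members were marked, against 35.3% of all protein-coding genes.

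All 8 restricted isoforms were in the CpG-poor group, as was the second Atp5o entry. Several other CpG-poor members were marked at another TSS with more CpG than the outermost one. At the TSS nearest to the summit the ratio was 0.69 instead of 0.14 for Cox7a2l, 0.87 instead of 0.46 for Atp5f1 and 0.55, just under the median of all genes, instead of 0.22 for Atp5j2. Cox7b (0.48) and Ndufa3 (0.47 at the TSS nearest to the summit) were also CpG-poor there, with scores of 223 and 209. Cox7b and its unmarked relative Cox7b2 were therefore close in this ratio, although the short sequences above held fewer CG sites for Cox7b, and the part of CpG content in the isoform difference was not tested.

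**Figure D4:**
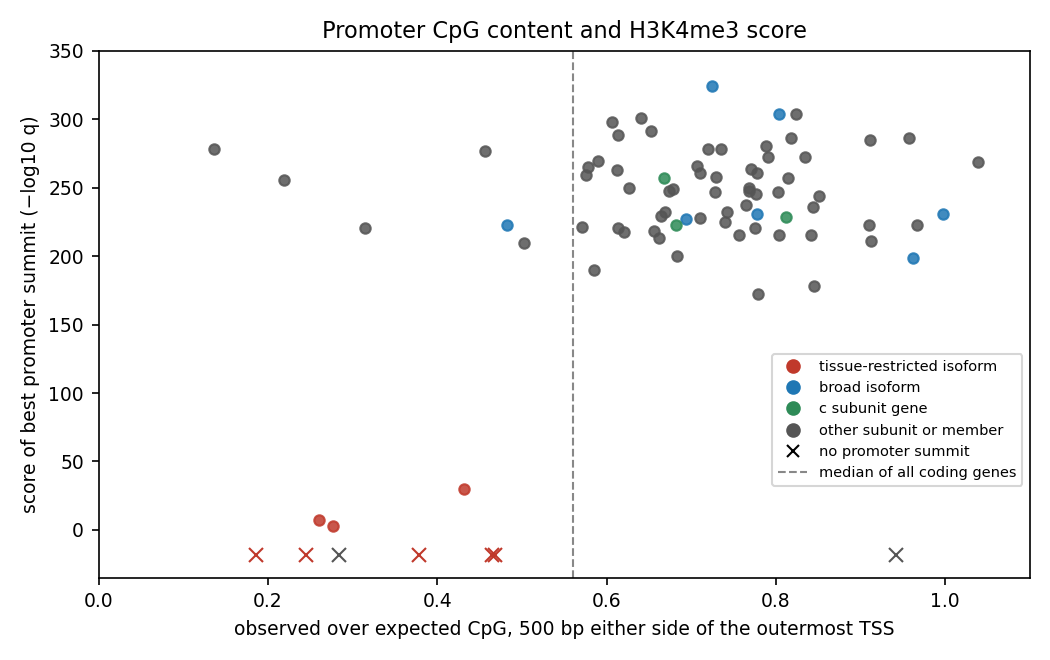
Score of the best promoter summit (−log10 q) against observed over expected CpG around the outermost TSS, with 1 point per member, crosses for members without a summit and a dashed line at the median of all protein-coding genes (0.56). All restricted isoforms lie left of the line at 29.7 or below or without a summit, and the other members form a band from 172 to 324.

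Among the 71 marked members outside the restricted isoforms, the score was nearly unrelated to CpG content (Spearman's rho −0.03 across genes), while over all 14193 marked protein-coding genes rho was 0.27. With gene length rho was 0.49 for the members and 0.06 for all marked genes. These are descriptions across genes of 1 list, without a test, and all points share its depth. The 23 shortest members (1205 to 4956 bp) had a median score of 221, the middle 25 of 257 and the 23 longest (9489 to 100464 bp) of 264. All marked protein-coding genes in the same length ranges had medians of 179.9, 189 and 199. The longer members thus had the higher median, and the members' median was above that of all marked protein-coding genes in each range.

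Promoters of these genes are known for sites of NRF1 and of the ETS factor NRF2 (GABP), which tie them to mitochondrial biogenesis, and for YY1. RefSeq promoters on GRCm38.p6, from 250 bases before to 50 after the start, were matched for 65 of the 81 entries and searched on both strands. The NRF1 letters GCGCANGCG were found in 18 members (27.7%), against 1671 of all 16630 matched protein-coding genes, 14.4% of the marked ones and 16.8% of the CpG-rich ones. The YY1 letters AAGATGGC were found in 10 (15.4%), against 3.63%, 4.83% and 5.46%. For the ETS letters CCGGAAGT the members (5, 7.69%) stood close to the other genes (5.95%, 8.45% and 9.64%).

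Sp1 letters GGGCGG, typical of CpG islands, were found in 26 members (40.0%), below the 51.1% of all, 69.2% of marked and 73.6% of CpG-rich protein-coding genes. The ERR letters TCAAGGTCA matched in 1 member (1.54%, against 0.385% of all). Taking NRF1, ETS and YY1 together, 30 members had at least 1 match (46.2%, against 17.8% of all), all of them among the 62 marked members with a promoter sequence, and the 3 unmarked members with one had none. None of the 4 restricted isoforms with a matched promoter had one. A match of letters is a description and not a bound site, and no match says only that these letters are not in the window.

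By complex, NRF1 letters were found in 7 of 15 promoters of complex V (46.7%), 8 of 32 of complex I, 2 of 5 of complex III and 1 of 13 of complex IV (7.69%). The only complex IV gene was Cox6a1. YY1 letters were found in 7 of 32 promoters of complex I (21.9%) and 3 of 15 of complex V, and in none of complexes III and IV. Of the 10 YY1 matches, 9 were on the gene's strand, and in 8 of these the ATG within the letters was an annotated start codon. In these 8 the first of the letters lay 22 to 38 bases after the transcript start. Among the members the letters therefore often coincided with the beginning of the coding sequence, and the share over all genes was not counted.

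Stretches of 4 promoters, 1 from each complex, show these letters in place, with at most 23 bases inside an annotated exon. Each runs 5′ to 3′ on the gene's strand and begins 150 bases before the RefSeq start on GRCm38.p6, and capitals mark NRF1 letters in Ndufs5, Cox6a1 and Atp5h and ETS letters in Uqcr11. The stretches are Ndufs5 at chr4:123718187-123718336 on the minus strand, Uqcr11 at chr10:80406822-80406971 on the minus strand, Cox6a1 at chr5:115348959-115349108 on the minus strand and Atp5h at chr11:115419963-115420069 on the minus strand.
Ndufs5: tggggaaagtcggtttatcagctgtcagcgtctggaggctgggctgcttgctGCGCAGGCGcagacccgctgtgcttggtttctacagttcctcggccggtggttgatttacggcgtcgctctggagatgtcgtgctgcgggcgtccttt
Uqcr11: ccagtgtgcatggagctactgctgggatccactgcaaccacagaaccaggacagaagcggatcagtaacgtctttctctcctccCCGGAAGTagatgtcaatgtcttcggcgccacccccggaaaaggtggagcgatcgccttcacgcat
Cox6a1: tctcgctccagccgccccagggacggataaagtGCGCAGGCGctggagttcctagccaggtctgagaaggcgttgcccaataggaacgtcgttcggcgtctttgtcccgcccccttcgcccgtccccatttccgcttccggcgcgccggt
Atp5h: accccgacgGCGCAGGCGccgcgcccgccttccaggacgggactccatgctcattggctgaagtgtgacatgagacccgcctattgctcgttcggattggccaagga

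Counted from the RefSeq start, the NRF1 letters began at −98 in Ndufs5, a complex I accessory gene with a score of 265, at −117 in Cox6a1 (198) and at −141 in Atp5h (236). The ETS letters of Uqcr11 (259) began at −66. Uqcr11 and Atp5h each held both NRF1 and ETS letters in the whole promoter window, and Ndufs6 held both NRF1 and YY1 letters. Ndufb4, a complex I accessory gene with a score of 261, held 3 separate NRF1 matches, at −191, −79 and −22 on the gene's strand.

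The wider pathway was described with lists of genes chosen by function. Complex II and the cytochrome c and c1 genes, which complete the chain, were marked in 6 of 6 with a median of 251, from 244 (Sdhc) to 271 (Sdha). Of 44 assembly factors, which build the complexes but are not part of them, 44 were marked with a median of 220.0, from Uqcc2 (104) to Sco1 (306), and 84.1% reached the median of all marked protein-coding genes. The 13 TCA cycle enzyme genes, which supply NADH, were all marked with a median of 232, from Suclg2 (105) to Mdh2 (275).

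The genes of nuclear regulators of this pathway had a lower median than the members. Of 13 such genes 12 were marked with a median of 198, and Ppargc1a, the coactivator PGC-1 alpha of mitochondrial biogenesis, had no summit within 1 kb. Nrf1 scored 187, Gabpa and Gabpb1 223 each, Tfam 223, Esrra 145 and Yy1 112, and the lowest was Esrrg at 58.0. Mitochondrial ribosomal protein genes were marked in 78 of 78 with a median of 222, and cytosolic ribosomal protein genes in 81 of 91 (89.0%) with a median of 226. The members without the restricted isoforms had a median of 247 with quartiles of 223 and 269. This median was above those of these lists except that of complex II and the cytochromes. The quartile ranges overlapped, except for the nuclear regulators, whose upper quartile of 223 only reached the members' lower quartile at this rounding.

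**Figure D5:**
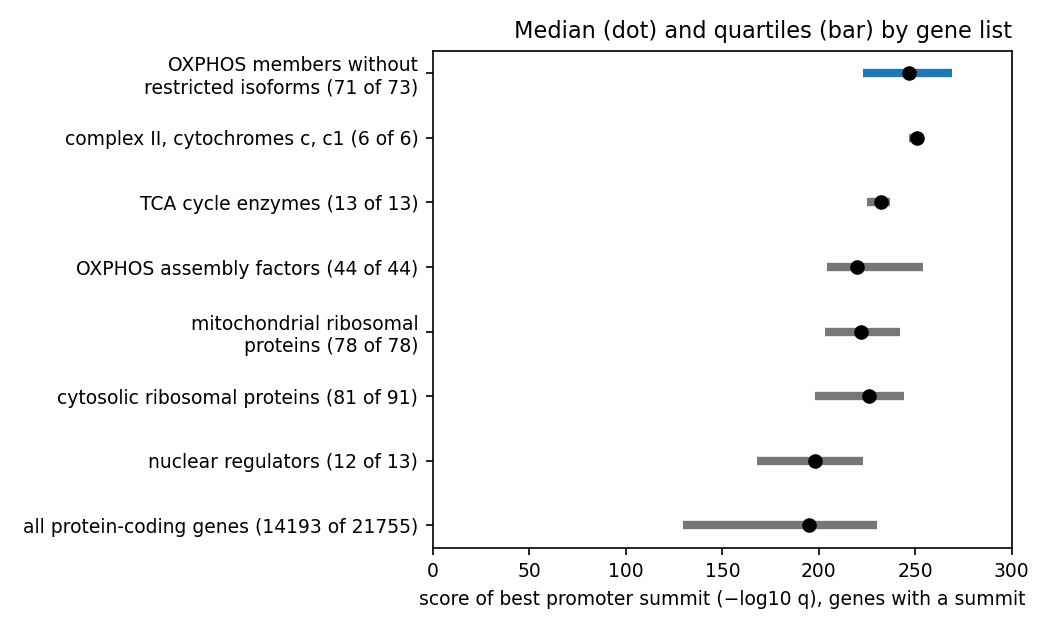
Median (dot) and quartiles (bar) of the best promoter score (horizontal axis, −log10 q) over the marked genes of each list, with the number marked of all genes in brackets. The members without restricted isoforms (median 247) and complex II with the cytochromes (251) stand highest, and all protein-coding genes (195) lowest.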

How the data were processed

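H3K4me3 ChIP-seq of amygdala was described by 15 samples, 11 of H3K4me3 and 4 of input. The authors aligned reads with Bowtie, kept uniquely mapped reads and called peaks against input with MACS2 (version 2.1.0.20140616). The authors deposited the WT summits as 1 list for both mice, with a score per 1 bp summit that was read as −log10 of the q-value. Column 5 is not named in the file, and the list holds neither read counts nor peak widths, so no interval is given for a score.

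Summits on chromosomes 1 to 19, X and Y (24139 of 24162) were compared with GENCODE M21 TSSs on GRCm38 (mm10), the authors' build. Following the Methods, promoters reached 1 kb from a TSS in both directions. Genes were grouped by symbol. Mutant samples were not analysed here, and the values of 1 member are not reported here. Named members were those without a summit, the isoform and c subunit genes, the complex I core and F1 genes, the 3 highest and lowest of each complex, members with a second summit and examples of shared summits, besides examples chosen after their values were seen. Members, gene lists and motifs were chosen with earlier results of these data known. Scripts used Python 3.11.15, numpy 2.4.6, scipy 1.17.1 and pysam 0.24.0 and were checked on simulated data.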

Additional observations from a re-analysis of the deposited data

How the results depend on the processing

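Of 112 values of 15 results recomputed under 9 alternatives, 107 stayed within 1.5 times the reported count or inside the 95% interval of the reported median. Some of these checks could hardly fail. The count of broad isoforms, 7 of 7, could not rise, and the interval of the complex IV median ran from 29.7 to 278. The intervals were taken across genes, which are not replicates. Marked members numbered 72 when the window was 500 bp, 76 at 3 kb and 75 with RefSeq starts added, an alternative chosen after seeing the data. The median score of protein-coding genes moved from 195 to 191 with the 500 bp window, to 209.6 with only summits at or above the list median of 102, and to 187 with the summit nearest to a TSS. That list median also left 0 restricted isoforms marked instead of 3. The members' median signed summit distance was 314 bp with the outermost TSS only, instead of 179.5 bp. No paired analysis was possible because 1 list served for both mice, and for the same reason no replicate could be left out.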

Other observations

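The symbols of the set also matched 12 GENCODE entries of other biotypes, and 1 of these had a promoter summit. Ndufb1-ps, annotated as a bidirectional promoter lncRNA at chr12:101968090-101977068, had a summit of 282 at 411 bp downstream of its TSS. The 11 processed pseudogenes had none within 1 kb.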
